A study of Drosophila melanogaster with 6 samples.

Results

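The genes described here are 10 antioxidant enzyme and thiol reductase genes of Drosophila melanogaster: Sod2, Sod3, Cat, Prx3, Prx6c, Gtpx, Trxr1, Trx-2, MsrA and ry. They were chosen by name, with earlier results of these data known. Each was read by its brightest probe set over all 6 arrays among the probe sets annotated with that single symbol. All 10 were measured, with 11 probe sets, among 11982 genes that the annotation names. Trx-2 is written Trx2 in the annotation and was matched as a RefSeq synonym. The study compared 3 samples of clbn knock-out embryos, aged 0 to 24 h at collection, with 3 samples of w1118 embryos of the same age range, all from flies kept at 25 °C. w1118 is a laboratory stock carrying a mutant white gene, and the labels give it as the strain background of both groups, with no allele name for the knock-out and no statement of backcrossing. Clbn (Caliban) is the fly homologue of NEMF, a factor of ribosome-associated quality control. Each array held biotin-labelled cRNA of 1 sample of whole embryos, and the labels do not say whether samples were separate collections. The p-values therefore measure the spread between these samples, which may be technical.

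Superoxide dismutases turn superoxide into hydrogen peroxide, which catalase, peroxiredoxins and glutathione peroxidase-like enzymes then remove. Many thiol-based peroxidases are recharged by thioredoxin, which thioredoxin reductase returns to its reduced form with electrons from NADPH. Flies lack a glutathione reductase, and their thioredoxin system also keeps glutathione reduced. Methionine sulfoxide reductases repair oxidised methionines in proteins. Xanthine dehydrogenase, the product of ry (rosy), makes urate, which is an antioxidant as well as an excreted end product.

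The arrays were on one log2 scale, with medians between 6.17 and 6.36 and first quartiles between 4.28 and 4.36, so 1 unit is a doubling of signal. The targeted gene, Clbn (CG11847, arm 3R), read 5.42, 5.27 and 5.14 in knock-out arrays and 7.86, 8.25 and 8.44 in w1118 arrays. Where its probe set lies relative to the deleted part was not analysed here. Knock-out array 1 stood apart. It lay at 32.38 on the first principal component, with knock-out arrays 2 and 3 at 12.42 and 9.56, and its 3′ control probe sets exceeded its 5′ ones by 1.24 log2 units, compared with 0.729 and 0.667 in knock-out arrays 2 and 3 and 0.723 to 0.779 in w1118. Array values have no true zero and levels of different probe sets cannot be compared, so the markers give no check of the embryo label. Of the measured maternal germ-plasm (8) and early patterning (12) markers, 0 were called, and the ranges of both lists overlapped between the groups. Both lists leaned higher in the knock-out, with median log2 differences of 0.13 and 0.11, against 0.02 over all genes. Of the maternal markers 2 were below 0, and of the early patterning markers 1. Markers of late embryonic tissues differed between the groups. Their log2 differences were below 0 for 11 of 13 cuticle, 7 of 7 muscle and 8 of 8 neuronal genes. The mean of 13 cuticle genes was 9.33 to 9.66 in knock-out arrays and 9.88 to 9.94 in w1118 arrays, and 3 of them fell and 0 rose. The mean of 7 muscle genes was 11.18 to 11.41 in knock-out arrays and 11.82 to 11.99 in w1118 arrays, and 4 fell and 0 rose. The mean of 8 neuronal genes was 6.80 to 7.19 in knock-out arrays and 7.29 to 7.61 in w1118 arrays, with 0 called. The ranges of fat body, Malpighian tubule, haemocyte, midgut and glial markers overlapped between the groups. In whole embryos, fewer cells of a type and less RNA per cell cannot be told apart. Whether the groups differed in embryo age within the 0 to 24 h range was not tested. The part of these marker differences in the results for the 10 genes was not tested either.

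In the knock-out, 2 of the 10 genes fell and 0 rose by limma at an adjusted p below 0.05: MsrA, 1.46-fold, and ry, 1.58-fold. Among all genes the share called was 4.51%, with 1.88% higher and 2.63% lower. Because the members were chosen with earlier results of these data known, comparisons with all genes test no excess among them. The other 8 genes were not called. Of the 10, 5 had a log2 difference above 0 and 5 below. The median difference was −0.01, against 0.02 over all genes, and the median absolute difference was 0.22, against 0.12. Knock-out and w1118 values were fully separated for 4 members, MsrA, ry, Gtpx and Prx6c, and for 28.8% of all genes. An unadjusted p under 0.05 was reached by 5 members, these 4 and Sod3, and by 22.8% of all genes. In a fit with replicate number as a block, Gtpx and Prx6c were called too, 4 of 10 in all, against 6.44% of all genes in that fit. Arrays of the same number deviated together from their group means, so blocked values are given where they bear on a call.

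**Figure D1:**
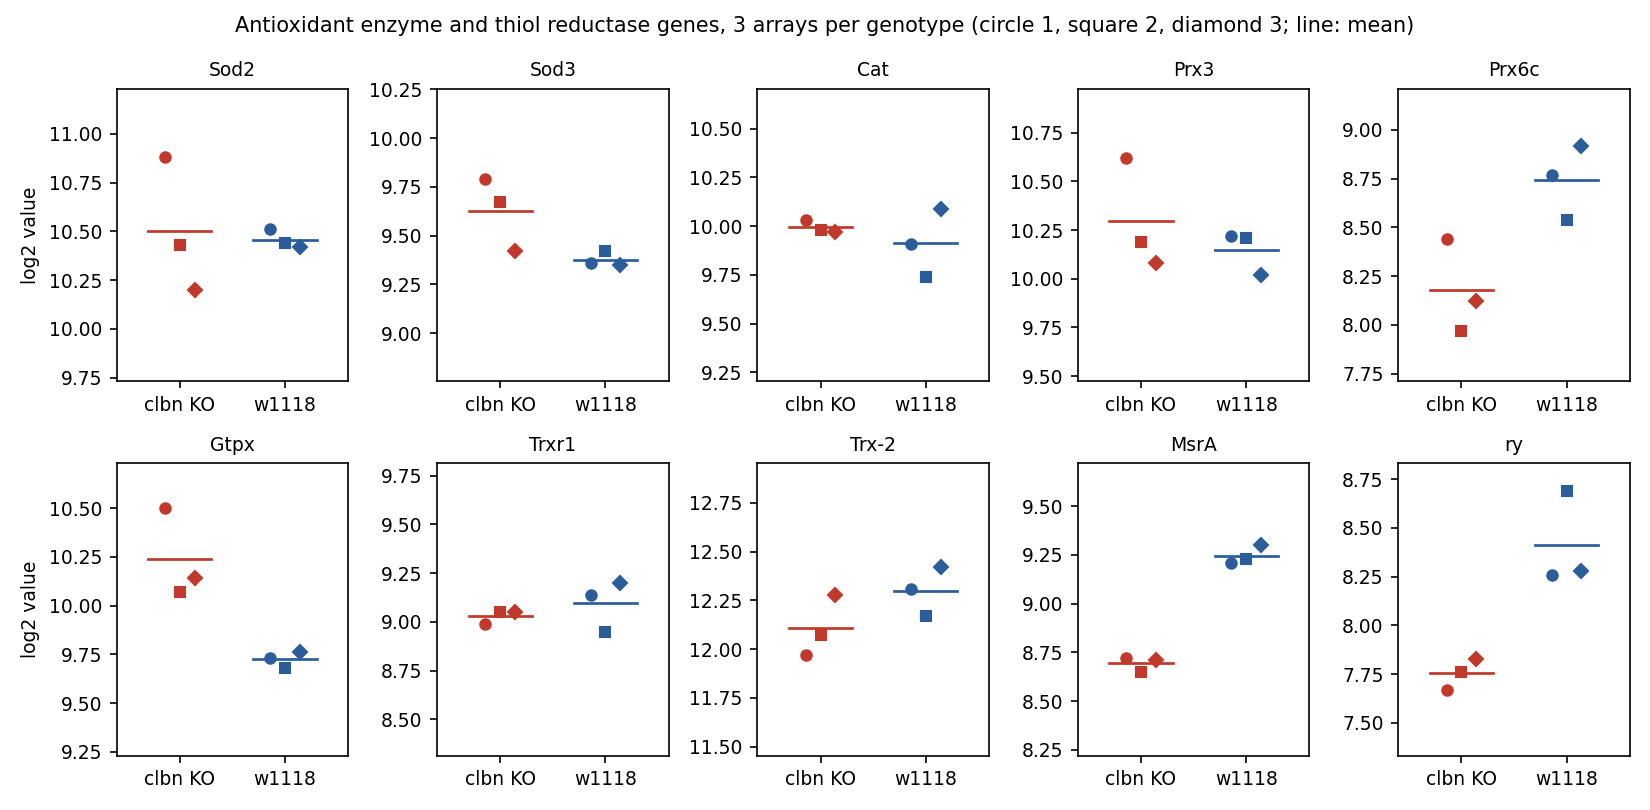
Log2 value of the 10 genes in each array, with clbn knock-out arrays in red on the left of each panel and w1118 arrays in blue on the right, every panel spanning the same number of log2 units; symbols mark the replicate number and lines the mean of 3 arrays. MsrA, ry and Prx6c lay lower in every knock-out array than in any w1118 array, and Gtpx lay higher.

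Superoxide dismutation is represented by Sod2, the manganese enzyme of the mitochondrial matrix, and Sod3, a copper and zinc enzyme of the extracellular kind. Sod2 (CG8905, arm 2R) read 10.88, 10.43 and 10.20 in knock-out arrays and 10.51, 10.44 and 10.42 in w1118 arrays. The knock-out arrays lay on both sides of the tight w1118 group, with array 1 highest and array 3 lowest of all 6. The log2 difference was 0.05 (SE 0.16, 95% interval −0.32 to 0.42, adjusted p = 0.907), which turned to −0.14 when knock-out array 1 was left out and to −0.09 under array weights. Sod3 (CG9027, arm 2R) read 9.79, 9.67 and 9.42 in knock-out arrays and 9.36, 9.42 and 9.35 in w1118 arrays. The groups touched at 9.42. The log2 difference was 0.25 (SE 0.10, 95% interval 0.01 to 0.49), with an unadjusted p of 0.0427 and an adjusted p of 0.247 by limma. Without knock-out array 1 it was 0.17 (adjusted p = 0.448). A second, dimmer probe set of Sod3 had the opposite sign, with 6.59, 6.84 and 6.67 in knock-out arrays and 6.80, 6.68 and 6.95 in w1118 arrays (log2 difference −0.11, adjusted p = 0.623). The mean of both probe sets differed by 0.07 (adjusted p = 0.709), so no direction is given for Sod3.

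Hydrogen peroxide is broken down by Cat, the peroxisomal catalase, and by Prx3, a peroxiredoxin of mitochondria. Cat (CG6871, arm 3L) read 10.03, 9.98 and 9.97 in knock-out arrays, inside the spread of 9.91, 9.74 and 10.09 in w1118 arrays. Its log2 difference of 0.08 (95% interval −0.15 to 0.30, adjusted p = 0.741) was −0.01 without w1118 array 2. Prx3 (CG5826, arm 3R) read 10.62, 10.19 and 10.08 in knock-out arrays and 10.22, 10.21 and 10.02 in w1118 arrays. Only knock-out array 1 lay above the w1118 arrays. The log2 difference of Prx3 was 0.14 (95% interval −0.19 to 0.48, adjusted p = 0.656), and −0.02 without knock-out array 1. The intervals of Cat and Prx3 reach 1.23-fold and 1.39-fold higher in the knock-out, so differences up to that size are not excluded for these genes.

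Gtpx encodes the fly glutathione peroxidase homologue, which uses thioredoxin as its electron donor. Gtpx (CG12013, arm 3L) read 10.50, 10.07 and 10.14 in knock-out arrays and 9.73, 9.68 and 9.76 in w1118 arrays. The groups were separated by 0.31 log2 units, a gap wider than the w1118 range of 0.08 and narrower than the knock-out range of 0.43. Its log2 difference was 0.51 (SE 0.12, 95% interval 0.24 to 0.78), a 1.43-fold higher signal with an adjusted p of 0.0587. Within the numbered pairs the differences were 0.77, 0.39 and 0.38, and with the replicate block the adjusted p was 0.0461. Without knock-out array 1, the highest of the 6, the log2 difference was 0.38 (adjusted p = 0.0447). Over its 13 alternatives the adjusted p ran from 0.0178 to 0.19. The suffix of this probe set (_s_at) marks probes that match more than 1 transcript, and these can belong to different genes.

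Prx6c encodes a peroxiredoxin of the Prx6 group. Prx6c (CG11765, arm 2R) read 8.44, 7.97 and 8.12 in knock-out arrays and 8.77, 8.54 and 8.92 in w1118 arrays. The groups did not overlap, but the gap of 0.09 was smaller than the range within either group. Prx6c differed by −0.56 log2 units (SE 0.14, 95% interval −0.89 to −0.23), with an adjusted p of 0.08. The differences within the numbered pairs were −0.32, −0.56 and −0.80, and the adjusted p was 0.0395 with the replicate block. Without knock-out array 1 the log2 difference was −0.69 (adjusted p = 0.0282), and over its 13 alternatives the adjusted p ran from 0.00859 to 0.262. The fly genome holds close copies of this gene, and whether the probe set also reads them was not tested. In size, the differences of Prx6c and Gtpx exceeded those of 95.2% and 94.0% of all genes.

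The thioredoxin system is represented by Trxr1, thioredoxin reductase, and Trx-2, its main cytosolic thioredoxin substrate. Trxr1 (CG2151, arm X) read 8.99, 9.05 and 9.05 in knock-out arrays, inside the w1118 values of 9.14, 8.95 and 9.20. Its log2 difference was −0.07 (95% interval −0.26 to 0.13, adjusted p = 0.738), and 0.01 with each array centred on its median. Trx-2 (CG31884, arm 2L) was the brightest of the 10 probe sets, above 98.4% of all probe sets. It read 11.97, 12.07 and 12.28 in knock-out arrays and 12.31, 12.17 and 12.42 in w1118 arrays. The groups overlapped, although each knock-out array was lower than the w1118 array of its number, by 0.34, 0.10 and 0.13 log2 units. The log2 difference of Trx-2 was −0.19 (95% interval −0.43 to 0.05, adjusted p = 0.393, and 0.233 with the replicate block). As a ratio of knock-out to w1118, the intervals run from 0.833 to 1.09 for Trxr1 and from 0.74 to 1.04 for Trx-2. Falls within those bounds are therefore not excluded. The Trx-2 probe set has the same _s_at suffix as that of Gtpx.

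MsrA, also called Eip71CD, encodes the methionine sulfoxide reductase that acts on the S form of oxidised methionine, and in the fly it is known as a gene induced by the moulting hormone ecdysone. MsrA (CG7266, arm 3L) read 8.72, 8.65 and 8.71 in knock-out arrays and 9.21, 9.23 and 9.30 in w1118 arrays. All 3 knock-out arrays were lower, and the gap of 0.49 exceeded the ranges of 0.07 in the knock-out and 0.09 in w1118. MsrA averaged 8.70 ± 0.04 in the knock-out and 9.25 ± 0.05 in w1118 (SD, n = 3 each). This is a log2 change of −0.55 (SE 0.07, 95% interval −0.71 to −0.39, adjusted p = 0.00626 by limma). The pairs gave −0.49, −0.58 and −0.59. MsrA was called in all 13 alternatives, with adjusted p from 0.00184 to 0.0407 and log2 differences from −0.58 to −0.48, and without knock-out array 1 the difference was −0.56 (adjusted p = 0.0104). SelR, which encodes the other kind of methionine sulfoxide reductase and is named here outside the naming rule, differed by −0.05 log2 units (adjusted p = 0.81).

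Xanthine dehydrogenase, encoded by ry, oxidises hypoxanthine and xanthine to urate and needs a sulfurated molybdenum cofactor. The ry probe set (CG7642, arm 3R) read 7.67, 7.76 and 7.83 in knock-out arrays and 8.26, 8.69 and 8.28 in w1118 arrays. The groups were 0.43 apart, equal to the w1118 range of 0.43, and w1118 array 2 was the highest of the 6. The log2 difference was −0.66 (SE 0.12, 95% interval −0.94 to −0.37, adjusted p = 0.0321, and 0.0271 with the replicate block). The 3 numbered pairs gave −0.59, −0.92 and −0.46. The call was lost without w1118 array 1 (adjusted p = 0.0769) or w1118 array 3 (0.0684), and without knock-out array 1 (0.0614), 2 (0.0876) or 3 (0.0726), while the log2 difference stayed between −0.73 and −0.52 whichever array was left out. The ry probe set was the dimmest of the 10, yet above 64.5% of all probe sets, so every member was well above the dim end of the arrays.

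**Figure D2:**
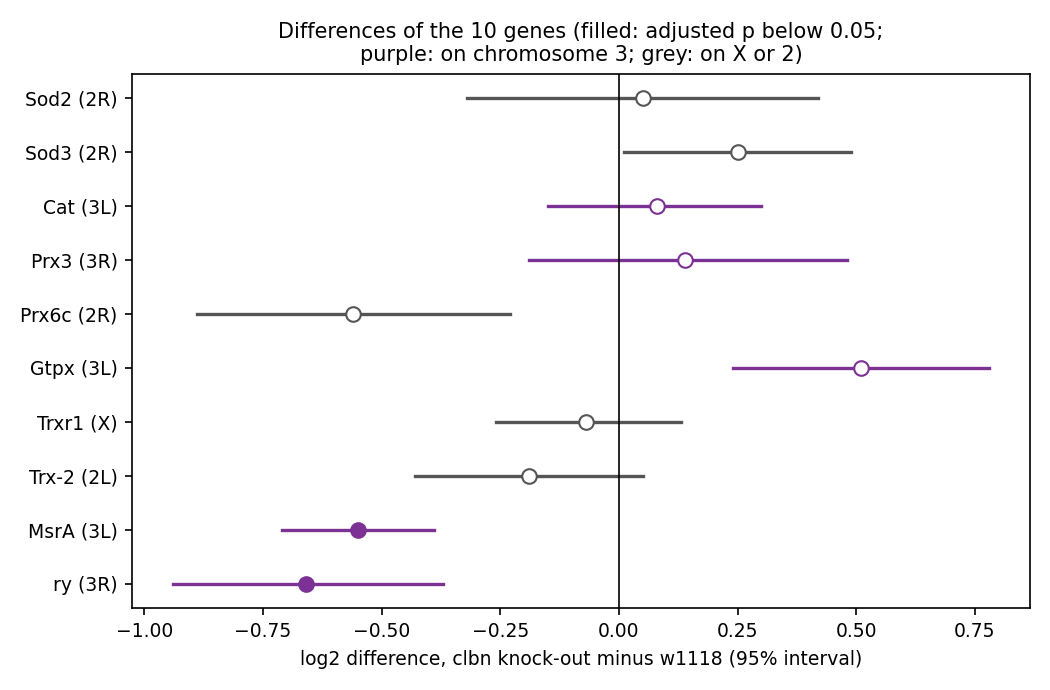
Log2 difference of each gene, clbn knock-out minus w1118, as a point with its 95% interval from the moderated fit, with the chromosome arm in brackets; filled points have an adjusted p below 0.05 and purple marks chromosome 3. MsrA and ry are the filled points, both on chromosome 3, and the intervals of Gtpx, Prx6c and Sod3 also leave out 0.

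The position of the genes was compared with that of clbn, which lies on arm 3R. Of the 5 members on chromosome 3 (Cat, Prx3, Gtpx, MsrA and ry) 2 were called, and of the 5 on X and 2 (Trxr1, Trx-2, Sod2, Sod3 and Prx6c) 0 were called, with Sod3 and Prx6c at an unadjusted p under 0.05. Over the whole array 7.09% of chromosome 3 genes and 2.35% of X and 2 genes were called. With the replicate block the members called were 3 of 5 on chromosome 3, with Gtpx, and 1 of 5 on X and 2, Prx6c, against 9.33% and 4.01% of all genes there. For genes on chromosome 3, as for those on X and 2, an effect of clbn loss and another difference between the stocks cannot be told apart. None of the 6 measured genes that flank MsrA, 3 to each side, was called, with log2 differences from −0.46 to 0.56 and the smallest adjusted p at 0.217 (CG13454). None of the 6 around ry was called either, with differences from −0.12 to 0.34. The closest to the threshold was CG11670, at 0.34 (adjusted p = 0.0685). These neighbours were taken by position, outside the naming rule.

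Knock-out array 1 was the highest of the 6 arrays for 4 members, Sod2, Sod3, Prx3 and Gtpx, and the highest knock-out array for 7. The same counts were not made over all genes, so they are not read as a trait of the members. Without it, 3 members were called, MsrA, Gtpx and Prx6c, against 3.83% of all genes in that fit. The standard deviation of the knock-out arrays reached 0.35, for Sod2, and that of w1118 arrays 0.24, for ry. The spread was wider in the knock-out for Sod2, at 0.35 against 0.05, and for Gtpx, at 0.23 against 0.04. It was narrower in the knock-out for Cat, at 0.03 against 0.17, and for ry, at 0.08 against 0.24.

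**Figure D3:**
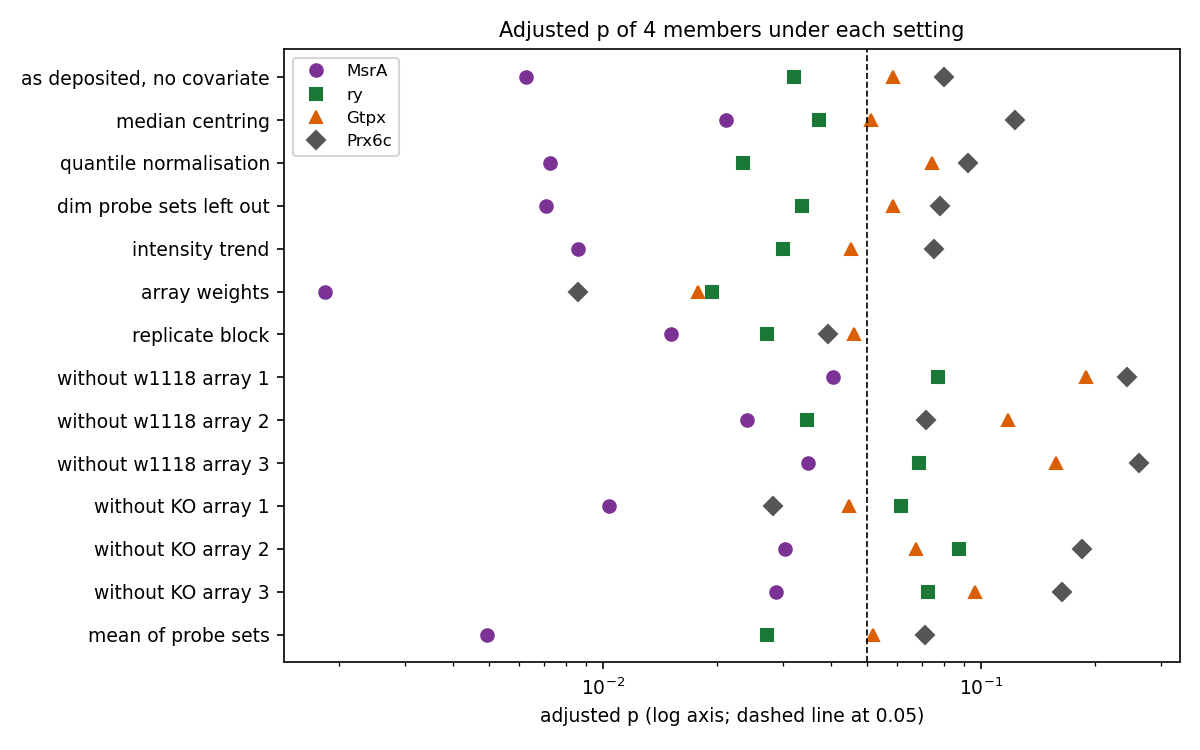
Adjusted p of MsrA, ry, Gtpx and Prx6c (log axis, dashed line at 0.05) under the fit of the deposited values and 13 alternatives. MsrA stays left of the line throughout, between 0.00184 and 0.0407, while ry, Gtpx and Prx6c cross it.

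The genes around these enzymes were followed in 6 lists. Of 127 names 98 were matched to a measured gene, and of these genes 2 rose and 2 fell (4.08%, against 4.51% of all genes). The unmatched names include second names of measured genes, such as rosy for ry and Sestrin for Sesn. They are therefore not a count of unmeasured genes. The first list held 13 other superoxide and peroxide genes. These were dismutase, peroxidase and catalase-like genes together with the oxidase genes Nox and Duox and the copper chaperone gene Ccs. Of the 13 limma called 0, with 4 at an unadjusted p under 0.05 and 1, Pxd, called with array weights. Their median log2 difference was −0.08, against 0.02 over all genes. The 2 of smallest p were Nox, which encodes a superoxide-producing NADPH oxidase (log2 −0.42, adjusted p = 0.136), and the peroxidase gene Pxd (−0.27, adjusted p = 0.175). Sod1 is among the names not analysed here.

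Among 28 other thioredoxin, glutaredoxin and sulfoxide reductase genes, 1 rose and 0 fell, with 4 at an unadjusted p under 0.05 and a median of 0.08. It was GILT3, of the family of lysosomal thiol reductases, which reduce disulfide bonds of proteins being degraded. GILT3 (CG13822, arm 3R) read 10.62, 10.45 and 10.63 in knock-out arrays and 10.23, 10.03 and 10.14 in w1118 arrays. Every knock-out array was above every w1118 array. GILT3 was 0.44 log2 units higher (SE 0.09, adjusted p = 0.0378), a call that was lost whichever array was left out (adjusted p from 0.054 without knock-out array 2 to 0.129 without w1118 array 3). Of 13 glutathione synthesis and NADPH supply genes 1 fell and 0 rose, with 4 at an unadjusted p under 0.05 and a median of 0.09. CG17636, listed with the gamma-glutamyl transferase-like genes, read 5.41, 5.48 and 5.39 in knock-out arrays and 6.69, 6.54 and 6.96 in w1118 arrays. The groups were 1.07 apart. On the log2 scale the difference was −1.30 (SE 0.11, adjusted p = 0.00093), 2.47-fold lower, and the gene was called in all 12 alternatives run on it. It lies on X.

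The purine breakdown and molybdenum cofactor list is the one nearest to ry. Of 11 measured genes 1 fell and 0 rose, with a median of 0.14. An unadjusted p under 0.05 was reached by 6 of them, against 22.8% of all genes. The gene that fell was AOX3, an aldehyde oxidase gene of the same enzyme family as ry, and it was called in all 12 alternatives (adjusted p from 1.02e-05 to 0.00147). AOX3 (CG6045, arm 3R) read 6.10, 6.07 and 6.11 in knock-out arrays and 7.44, 7.43 and 7.34 in w1118 arrays. The gap of 1.23 exceeded the ranges of 0.04 in the knock-out and 0.10 in w1118. The log2 difference was −1.31 (SE 0.07, adjusted p = 7.01e-05), 2.47-fold lower in the knock-out. The 3 other aldehyde oxidase genes lie beside it, and none was called. Their log2 differences were −0.25 for AOX1 (adjusted p = 0.381), 0.14 for AOX2 (0.662) and −0.13 for AOX4 (0.421). AOX2 and AOX4 averaged 4.61 and 4.27 in the knock-out and 4.47 and 4.41 in w1118, close to the first quartile of all values, where the size of a difference is uncertain.

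Of the cofactor names in this list, mal and Mocs1 were measured, and cin, Mocs2A, Mocs2B, CG42503, Uba4 and Gphn were not analysed here. The gene mal, chosen after its values were seen, encodes the sulfurase that activates the molybdenum cofactor of xanthine dehydrogenase and aldehyde oxidase. It read 8.35, 8.20 and 8.26 in knock-out arrays and 7.93, 7.92 and 7.65 in w1118 arrays. The groups did not overlap. The log2 difference was 0.44 (SE 0.10, adjusted p = 0.0523 by limma). The adjusted p was 0.0469 with the replicate block, 0.0464 with median centring and 0.0384 with array weights. In the other alternatives run on it, among them each fit with an array left out, mal was not called. Mocs1 acts at the start of cofactor synthesis and was also chosen after its values were seen. It differed by 0.27 log2 units (adjusted p = 0.124, or 0.032 under array weights) and was called in no other alternative run on it. Ada, Adgf-A and CG16758 of this list, named after their values were seen, also had an unadjusted p under 0.05. They differed by 0.31, 0.28 and −0.24 log2 units and were not called (adjusted p = 0.147, 0.159 and 0.221 by limma). Ada passed with array weights (0.0415).

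**Figure D4:**
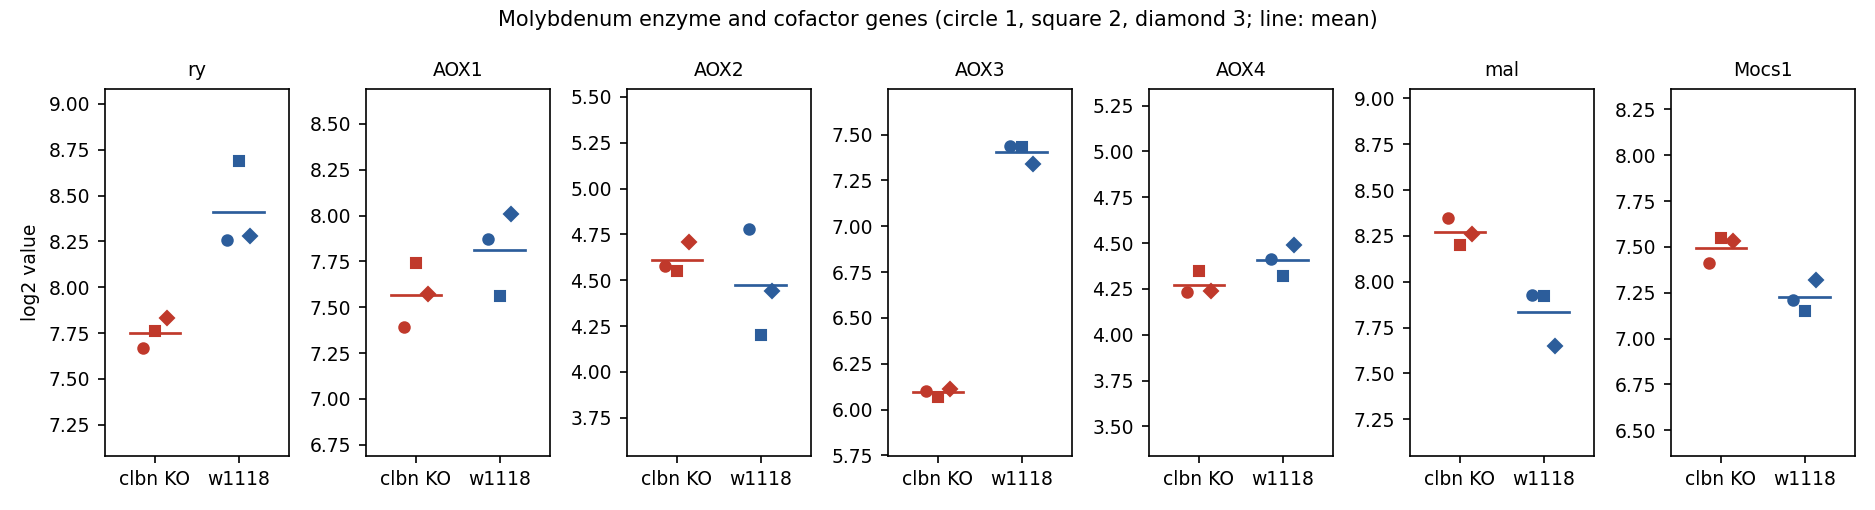
Log2 value of ry, the 4 aldehyde oxidase genes and the cofactor genes mal and Mocs1 in each array, clbn knock-out in red on the left and w1118 in blue on the right of each panel, with lines at the means. AOX3 and ry lie lower in every knock-out array, and mal and Mocs1 lie higher; AOX1, AOX2 and AOX4 overlap between the groups.

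Of 20 metal-binding genes 1 rose and 0 fell, with 3 at an unadjusted p under 0.05 and a median of 0.04. It was Atox1 (CG32446, arm 3L), the copper chaperone that hands copper to the export pump. Its values were 11.43, 11.30 and 11.37 in knock-out arrays and 11.01, 11.01 and 11.03 in w1118 arrays. The groups did not overlap. Atox1 was 0.35 log2 units higher (SE 0.07, adjusted p = 0.04), a call lost whichever array was left out, with adjusted p from 0.0679 without knock-out array 2 to 0.165 without w1118 array 1. Among 13 other genes of oxidative stress protection limma called 0, with 1 at an unadjusted p under 0.05. That was the lipocalin gene GLaz (log2 −0.25, adjusted p = 0.162). The next in this list was dj-1beta, the fly counterpart of the Parkinson disease gene DJ-1 (0.19, adjusted p = 0.315).

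**Figure D5:**
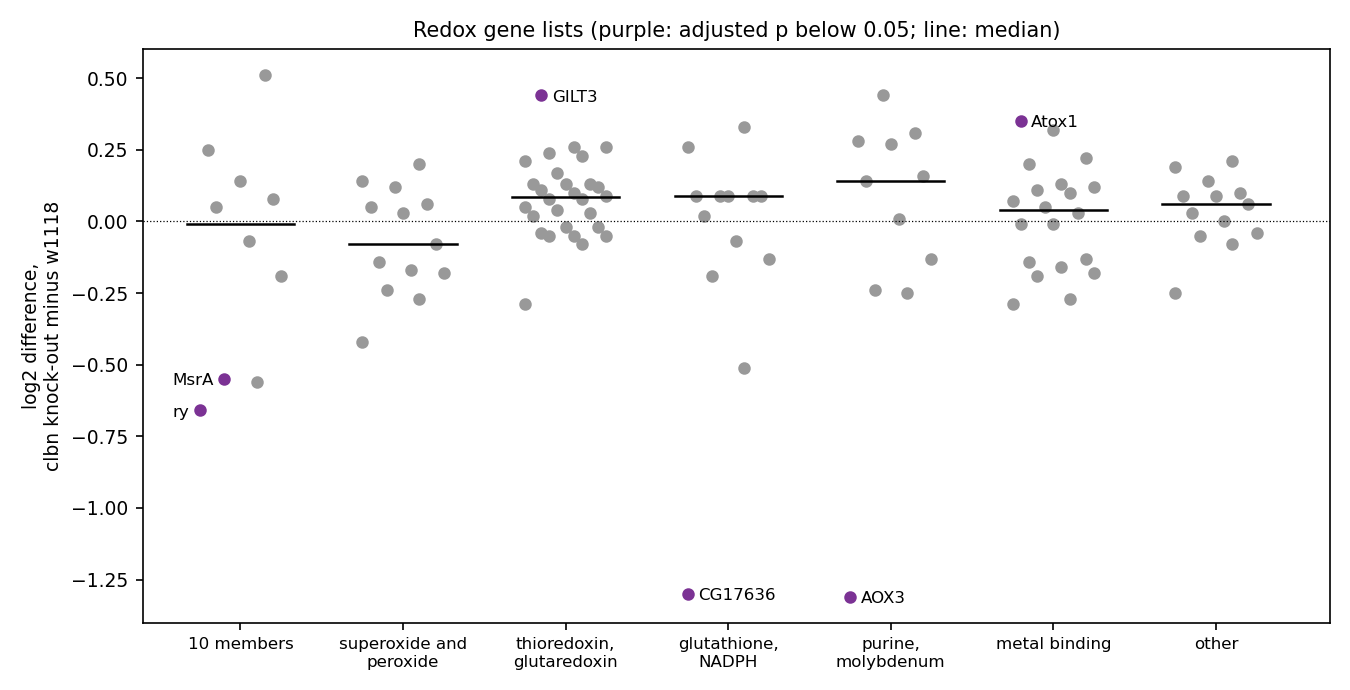
Log2 difference of every measured gene in the member set and the 6 lists, clbn knock-out minus w1118, 1 point per gene, with list medians as lines; purple points have an adjusted p below 0.05 and are named. MsrA, ry, CG17636 and AOX3 lie below 0 and GILT3 and Atox1 above, while list medians lie between −0.08 and 0.14.

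The genes whose profile was most like that of each called member were found by the root-mean-square distance over the 6 arrays, after each gene's own mean was subtracted, among 11981 genes. The closest to MsrA were Paip2 and RpS5b, at distances of 0.0297 and 0.0463 log2 units. Paip2 encodes a protein that binds poly(A)-binding protein and RpS5b a ribosomal protein paralogue, and their log2 differences were −0.55 (adjusted p = 0.0071) and −0.53 (0.00886). The closest to ry were jvl, at 0.0978, and CG2321, at 0.0989, with log2 differences of −0.69 (adjusted p = 0.0204) and −0.53 (0.101). All 4 lie on arm 3R. With 6 arrays in 2 groups, such closeness mostly describes a difference of like size between the genotypes.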

How the data were processed

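Affymetrix arrays of 6 whole-embryo samples, 3 clbn knock-out and 3 w1118, were analysed from the deposited log2 values. Per the submitters' processing notes, the authors used affy; its version and settings, and the array's genome build, are not stated there. The log2 scale was read from the deposited values, which run from 2.84 to 14.52, and they were not normalised again. Genes were named from the platform annotation (13647 of 18769 probe sets have 1 symbol). Of these, 13544 matched by gene identifier the RefSeq table of Release 6 plus ISO1 MT, used for names, arms and gene order.

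limma 3.58.1 in R 4.3.3 (lmFit, eBayes) fitted knock-out minus w1118 per probe set. Benjamini-Hochberg adjustment ran over 18769 probe sets, leaving out 183 controls, with calls at an adjusted p below 0.05. The fit was tested on simulated data in which 200 probe sets were changed and noise was drawn independently for each array. It called 40.3% of changes of 0.5 log2 units, 82.6% of those of 1.0 and 98.0% of those of 2.0. Of its calls, 4.55% were false. Same-numbered arrays deviated together (r = 0.252, 0.227 and 0.389 over probe sets), a pairing from the data, so blocked values are given. Alternatives were median centring, quantile normalisation, a filter on dim probe sets, an intensity trend, array weights, the replicate block, leaving out each array and averaging a gene's probe sets. Tables were made in Python 3.11.15 with pandas 2.3.3 and plots with matplotlib 3.10.9. No depth applies to arrays, and the 3 per group limit precision. Members and lists were chosen with earlier results of these data known, and 5 list names were removed after the annotation was seen. The genes named are the members, Clbn, called list genes (up to 4 a list by size, or the 2 of smallest p), and the 2 most like profiles of each called member, unless said otherwise.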

Additional observations from a re-analysis of the deposited data

How the results depend on the processing

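MsrA kept its call in all 13 alternatives. Leaving out 1 array at a time gave log2 differences, knock-out minus w1118, of −0.57 to −0.52 for MsrA, −0.73 to −0.52 for ry, whose call held only without w1118 array 2 among these, 0.38 to 0.60 for Gtpx, −0.69 to −0.46 for Prx6c, −0.14 to 0.21 for Sod2, −0.01 to 0.16 for Cat and −0.02 to 0.25 for Prx3. Sod2 turned to −0.14 and Prx3 to −0.02 without knock-out array 1, Cat to −0.01 without w1118 array 2, Sod2 to −0.09 with array weights and Trxr1 to 0.01 with median centring, none of them called. Gtpx passed the threshold with an intensity trend (0.51), array weights (0.44) and the replicate block (0.51), and Prx6c with array weights (−0.66) and the replicate block (−0.56). Of the 10 members 2 were called, 4 with array weights or the replicate block and 1 to 3 with an array left out. Of 18769 probe sets 668 were called, 1539 with array weights, 978 with the replicate block and 190 to 607 with an array left out. Of 98 measured list genes 4 were called, 11 with array weights, 5 with the replicate block and 2 with any array left out. Calls thus rose over the whole array with array weights and with the replicate block. The rise to 4 members is therefore not read as a trait of the members. The share of all genes called with array weights was not worked out here. Fits with an array left out have fewer samples; the cause of the other shifts was not tested. The replicate block changed no call of a member other than Gtpx and Prx6c. Median centring raised the median of all genes to 0.10, against 0.02.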
